A study of Homo sapiens with 2 samples.

Results

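MYC, FOSL1, DUSP5, KLF2 and EGR1 are 5 immediate early genes and were all found by name among the 1806 genes that the authors listed as different between a pair of human ovarian cancer lines. They were chosen because they stood in that list with differences between the lines, so their values are a description and no test is run on them. The BRCA1-deficient line is UWB1.289, an established cell line grown from a serous cancer of the ovary, with the genotype label BRCA1 Knockout. Its partner, labelled UWABRCA1 with the genotype label WT, is UWB1.289 to which BRCA1 was supplied. Both were untreated and grown in the same serum-containing medium, and the labels give 1 sample for each. Total RNA was depleted of ribosomal RNA and sequenced as strand-specific libraries. Every level below is the authors' mean FPKM (fragments counted per length of transcript and per depth of library) for a line. Only means were used, so no level has an error or an n.

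Immediate early genes are switched on within minutes of a growth factor, serum or stress signal, without new protein synthesis, and their RNAs and proteins are mostly short-lived. Receptors at the cell surface activate RAS and the kinase ERK, which phosphorylates ternary complex factors bound with SRF at CArG boxes in promoters such as that of EGR1. The products are mainly transcription factors, among them the AP-1 proteins, the EGR proteins and MYC, together with phosphatases of the DUSP family that switch the kinases off again. In ovarian and other epithelial cancers MYC and FOSL1 are known for driving growth and invasion.

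The start regions of KLF2 and EGR1 are shown because these zinc-finger factor genes lay on opposite sides of the comparison, and that of EGR2, the close relative of EGR1, because it was the other lower gene of the immediate early list. The sequences are from RefSeq (GRCh38.p14) and run 5′ to 3′ along the gene's strand from 250 bases before the start site to 50 bases after it. Of the 5 genes, EGR1 and KLF2 were matched there, and no sequence is given for MYC, FOSL1 or DUSP5. The stretches are chr5:138465229-138465528 (plus strand) for EGR1, chr10:62816317-62816616 (minus strand) for EGR2, which is the one of its 3 annotated starts whose window holds a CArG box, and chr19:16324576-16324875 (plus strand) for KLF2. Capitals mark CArG boxes in EGR1 and EGR2 and a MEF2 motif in KLF2.
EGR1: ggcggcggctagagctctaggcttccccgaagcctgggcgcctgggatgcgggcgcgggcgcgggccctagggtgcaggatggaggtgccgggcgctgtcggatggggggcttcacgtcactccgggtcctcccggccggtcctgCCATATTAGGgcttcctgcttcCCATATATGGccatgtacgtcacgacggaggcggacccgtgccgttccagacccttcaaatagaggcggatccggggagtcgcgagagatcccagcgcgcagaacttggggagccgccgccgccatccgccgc
EGR2: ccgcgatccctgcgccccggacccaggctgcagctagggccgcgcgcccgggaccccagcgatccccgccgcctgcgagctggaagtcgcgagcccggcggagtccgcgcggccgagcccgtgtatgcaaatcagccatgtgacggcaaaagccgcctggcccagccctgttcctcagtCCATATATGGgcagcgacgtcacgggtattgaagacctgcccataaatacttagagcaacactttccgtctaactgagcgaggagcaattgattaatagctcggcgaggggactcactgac
KLF2: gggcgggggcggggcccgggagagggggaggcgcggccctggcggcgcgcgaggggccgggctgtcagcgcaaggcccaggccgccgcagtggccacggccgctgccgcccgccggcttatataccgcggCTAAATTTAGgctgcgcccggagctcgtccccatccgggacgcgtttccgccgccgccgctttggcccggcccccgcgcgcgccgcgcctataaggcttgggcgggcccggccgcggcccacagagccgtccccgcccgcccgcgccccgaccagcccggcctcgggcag

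The EGR1 window held 2 CArG boxes, which begin at -105 and -83 from the start site (the first transcribed base being 0), and the EGR2 window held 1, at -71. The KLF2 window held none, and its MEF2 motif, the kind of site bound by the ERK5-regulated MEF2 factors, begins at -120. Both strands were searched in the 7 of 10 listed immediate early genes whose start regions were matched, and a palindromic match was counted once. A CArG box was found in EGR1 and EGR2 and in none of GADD45B, IL6, JUND, KLF2 and PLK3. Of all 35116 start regions of this length, 1.29% hold a CArG box and 2.99% a MEF2 motif. The CRE core TGACGT, in 7.98% of start regions, was found in EGR1 (at -136 and -67), EGR2, IL6 and JUND. The EGR-type site GCGNGGGCG, in 9.43%, was found in EGR1, KLF2, GADD45B and another EGR2 start, and it can share bases with the GC box GGGCGG. That GC box is in 45% of all start regions and occurs 6 times each in KLF2 and JUND, and also in PLK3 and other EGR2 starts. The ETS core GGAAG is in 71.9% of all start regions. It occurs 3 times in EGR1 and was also found in EGR2, GADD45B, IL6 and PLK3. The E-box CACGTG, in 7.26%, was found in GADD45B and in another EGR2 start, and the AP-1 motif TGANTCA, in 7.71%, in none of the 7 genes. A match of letters is a description of the window and not a measured binding site.

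BRCA1 itself, which checks the labels, had a level of 5.63 FPKM in UWB1.289 and 22.03 FPKM in its partner, the direction that the labels give. The depth of the libraries is unknown. The table holds called genes only, with an adjusted p of at most 0.0499 in the authors' deposited table, so a gene without a row is not analysed here. Of 12 markers of serous or epithelial identity 3 had a row: MUC16 (6.21 against 1.40 FPKM, deficient line first here and below) and MUC1 (24.3 against 4.81) were higher in the deficient line, and WT1 was near 0 in both lines (0.0130 against 0.155). The 10 leukocyte markers were all without a row.

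Of the 5 genes, 4 were higher in the BRCA1-deficient line and EGR1 was lower. Differences are given as log2 of (FPKM + 1), deficient minus expressing, a scale that shrinks the change of low genes, and a gene counts as 2-fold different past 1 on it. By that rule 4 members were at least 2-fold higher, where 25.3% of all listed genes were, and 1 was at least 2-fold lower, where 22.5% were. Counting by sign alone, 53.5% of listed genes were higher and 46.5% lower in the authors' deposited table. Since the members were picked from these values, nothing is read from their count against those shares. In bulk RNA, fewer cells that express a gene and less of its RNA in each cell cannot be told apart.

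**Figure D1:**
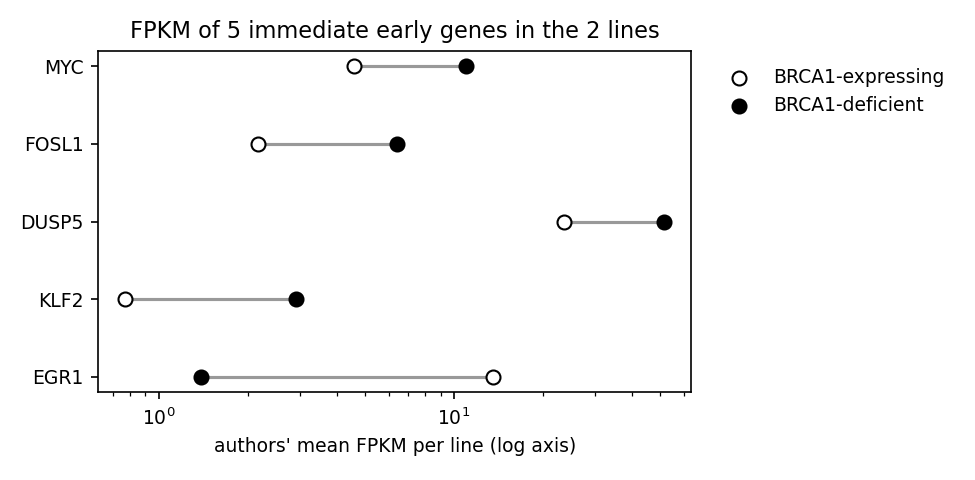
The authors' mean FPKM of each gene (log horizontal axis) in the BRCA1-deficient line (filled) and the BRCA1-expressing line (open), with a line joining the pair; there are no error bars because only means were used. EGR1 runs from 13.6 FPKM down to 1.39, and the other 4 genes lie higher in the deficient line.

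EGR1, the zinc-finger transcription factor that is among the fastest genes to respond to ERK and SRF, had 1.39 FPKM in the BRCA1-deficient line and 13.6 FPKM in the BRCA1-expressing line. It was thus 9.75-fold lower by the ratio of the means, and the log2 difference of FPKM + 1 was -2.61, which ranked 14 of 1806 from the lower end. The gene (ENSG00000120738) lies on chromosome 5 at 138465479 to 138469303, plus strand, read as GRCh38, and overlaps no other annotated gene on either strand. In the authors' deposited table the log2 fold change of EGR1 was -3.22 and its adjusted p 8.81e-13, the smallest of the 5 genes.

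MYC, the transcription factor that drives ribosome production and cell growth, had 10.9 FPKM without BRCA1 and 4.60 FPKM with it. Its mean was 2.38-fold higher without BRCA1, a log2 difference of 1.09 on the FPKM + 1 scale. The gene (ENSG00000136997) is given at 127735434 to 127742951 on the plus strand of chromosome 8. MYC had a log2 fold change of 1.39 and an adjusted p of 0.00466 in the authors' deposited table.

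FOSL1 encodes FRA-1, an AP-1 subunit of the FOS family that pairs with JUN proteins. Its level was 6.41 FPKM without BRCA1 and 2.17 FPKM with it, so the mean was 2.95-fold higher, with a log2 difference of 1.22. The gene (ENSG00000175592) lies on chromosome 11 at 65892049 to 65900573, minus strand. The authors' deposited table gave a log2 fold change of 1.65 with an adjusted p of 0.0104.

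KLF2, a zinc-finger factor best known from endothelium under shear stress and from resting T cells, had the lowest level of the 4 higher genes in both lines. Its level was 2.91 FPKM without BRCA1 and 0.769 FPKM with it, and the ratio of the means, 3.79, was above that of MYC, FOSL1 and DUSP5. On the FPKM + 1 scale its log2 difference was 1.15, close to those of the other higher genes, since the added 1 weighs most on low values. The gene (ENSG00000127528) lies on chromosome 19 at 16324817 to 16327874, plus strand, and the authors' deposited table gave a log2 fold change of 2.01 with an adjusted p of 0.000403.

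DUSP5 is the member that acts on the kinase itself: a nuclear phosphatase that removes the activating phosphates from ERK and is induced by ERK. DUSP5 had 51.6 FPKM without BRCA1 and 23.6 FPKM with it, a ratio of 2.19 and a log2 difference of 1.10. The gene (ENSG00000138166) lies on chromosome 10 at 110497907 to 110511533, plus strand. The authors' deposited table gave a log2 fold change of 1.26 and an adjusted p of 0.0254, the largest of the 5.

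**Figure D2:**
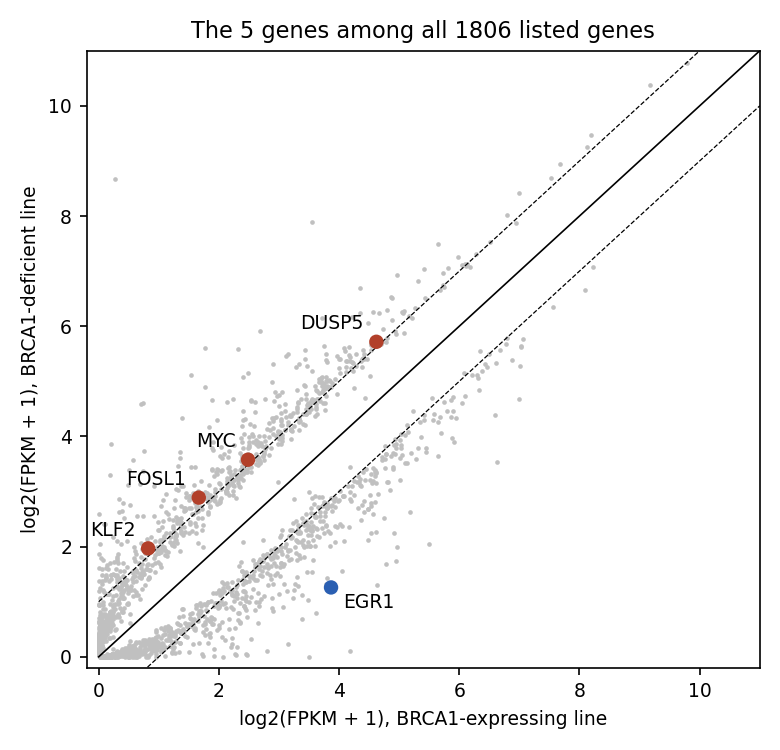
Level of each of the 1806 listed genes as log2(FPKM + 1) in the BRCA1-expressing (horizontal) and BRCA1-deficient line (vertical), with equality as a solid line and 2-fold differences dashed. The 4 higher genes lie just past the upper 2-fold line, at log2 differences of 1.09 to 1.22, and EGR1 lies at -2.61.

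The order of the 5 levels changed between the lines because of EGR1. In the expressing line the order was DUSP5, EGR1, MYC, FOSL1 and KLF2, and in the deficient line it was DUSP5, MYC, FOSL1, KLF2 and EGR1. FPKM is per transcript length, so the genes can be set side by side. EGR1 had 2.95 times the level of MYC in the expressing line and 0.127 times in the deficient line. Against KLF2, EGR1 had 17.7 times the level with BRCA1 and 0.478 times without it. The ratio of DUSP5 to MYC was 5.13 in the expressing and 4.72 in the deficient line. With means only, it cannot be said which neighbours in either order differ beyond their spread.

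**Figure D3:**
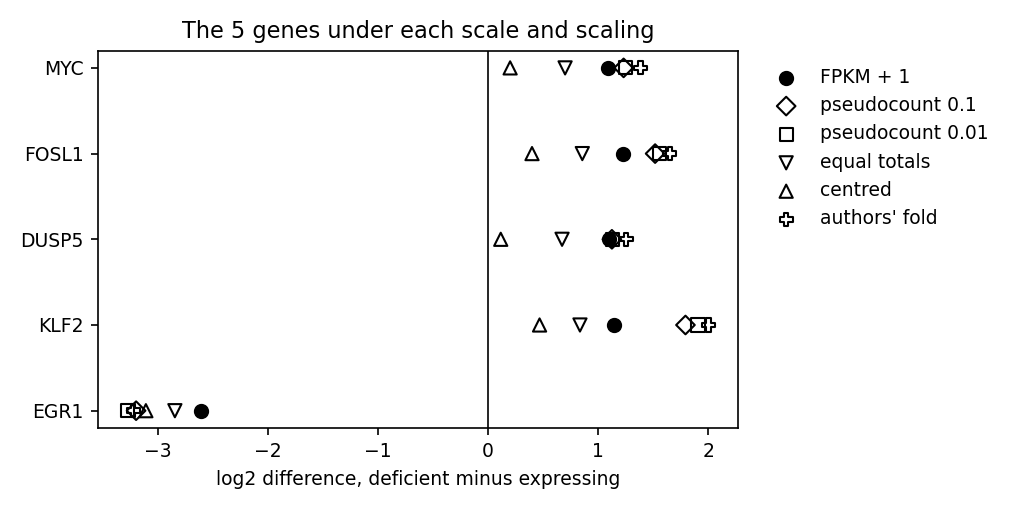
Log2 difference of each gene (deficient minus expressing, horizontal axis) on FPKM + 1 (filled) and under other pseudocounts, scalings and the authors' fold (open symbols). The 4 higher genes stay above 0 but come down to 0.12 to 0.47 when centred, and EGR1 stays between -3.28 and -2.61.

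The direction of the 5 genes was the same under every scale and scaling tried, but the size of the 4 higher ones was not. After the columns were scaled to the same sum of FPKM (equal totals), the differences were 0.70 for MYC, 0.86 for FOSL1, 0.67 for DUSP5 and 0.84 for KLF2, so none of the 4 passed 2-fold. After centring, in which the median log2 ratio over the 926 genes with at least 1 FPKM in each line was set to 0, they were 0.20, 0.40, 0.12 and 0.47. EGR1 was at -2.84 and -3.11 under these scalings. Both scalings lower the deficient line, so neither could change the sign of a lower gene, here and below. Another pseudocount cannot change any sign. The shift applied to the deficient line was -1.008 on the log2 scale for centring and -0.43 for equal totals, so the 926 genes were at a median log2 FPKM ratio of 1.008 before centring, beside 1.25 for MYC, 1.56 for FOSL1, 1.13 for DUSP5 and 1.92 for KLF2. On the FPKM + 1 scale the median of all listed genes moved by -0.21 and -0.07. Both scalings are computed from called genes alone, so neither is a known scale of the libraries. By the authors' fold, 964 of the 1806 listed genes lay past 2-fold on the higher side and 831 on the lower side. Few were left between. Since 57.3% of the 926 genes were higher, their median tends to fall at the inner edge of the higher genes, near 1. How far the calling sets the centring shift, and the drop of the 4 genes to 0.12 to 0.47, was not tested. Neither the shift nor the drop is read as a general offset between the lines.

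Transcript GC content moved with direction across the table. The 1796 listed genes with a GC value were put into 5 groups of nearly equal size by GC content, numbered from 1 (lowest). The share higher in the deficient line was 14.2% in group 1 and 89.7% in group 5. MYC (53.9% GC) lies in group 3, where 59.3% of genes were higher. FOSL1 (60.04%), DUSP5 (55.9%) and EGR1 (55.4%) lie in group 4, where 80.2% were higher and 7.24% were at least 2-fold lower. KLF2 (65.2%) lies in group 5. The 4 higher genes thus have the direction most common at their GC content, and EGR1 has the other. The median GC content of listed members was 57.8% for the immediate early genes described below, 56.4% for MYC targets, 45.1% for AP-1 targets and 54.8% for KLF2 targets. The part of GC content in these differences was not tested.

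**Figure D4:**
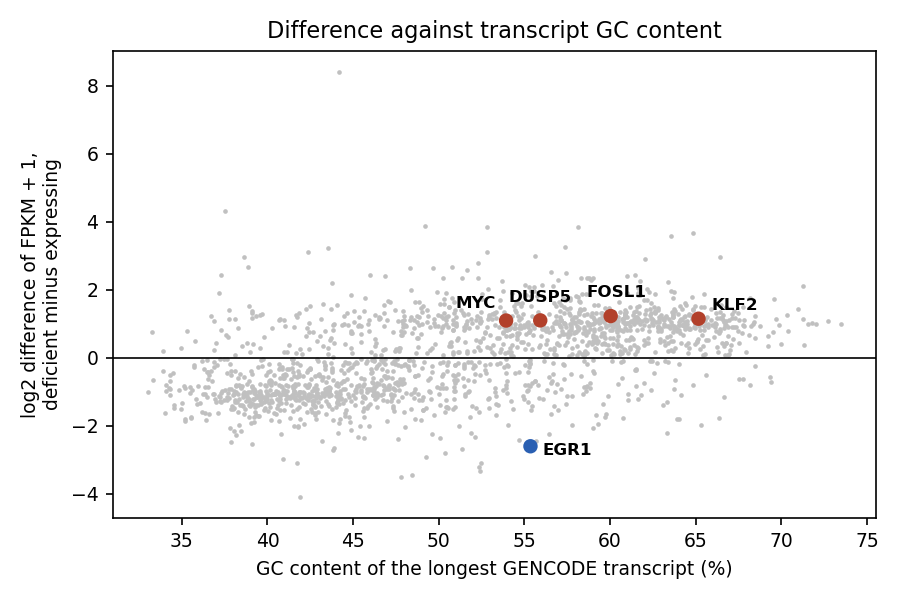
Log2 difference of FPKM + 1 (deficient minus expressing) of each listed gene against the GC content in percent of its longest GENCODE transcript, with the 5 genes in colour. MYC, DUSP5, FOSL1 and KLF2 lie within the cloud of higher genes between 53.9% and 65.2% GC, and EGR1 at 55.4% GC lies below it.

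Further immediate early genes were in the table as well. The table holds 1806 of the 38868 features in the authors' adjustment, and nothing is read from how many genes of any list had a row. The immediate early list holds 58 genes, of which 10 are in the table. Of these 8 were higher and 2 lower, with a median difference of 1.09, but 5 of the 10 are the genes chosen for their values, so this split is no support. Of the other 5, 4 were higher and 1 lower, with a median of 1.00. The median over all listed genes was 0.20, and over the 1305 with at least 1 FPKM in either line it was 0.78, with 55.2% of them higher. Most called genes were past 2-fold by the authors' fold, so a list with most genes higher tends to a median near 1 or above. A list median therefore adds little to the count of signs, here and below. FOS, FOSB, JUN, JUNB, ATF3, IER2, IER3, DUSP1, DUSP6 and the NR4A genes are among the 48 without a row and are not analysed here. Besides the 5 genes above, JUND, an AP-1 partner of FOSL1, had 49.6 against 22.02 FPKM. The kinase PLK3 had 9.46 against 4.54, GADD45B, a stress-induced regulator of p38 and JNK kinases, 27.8 against 11.3, and the cytokine IL6 12.6 against 5.77. EGR2 was lower like EGR1, but barely measured, at 0.0149 against 0.170 FPKM, and its adjusted p in the authors' deposited table was 0.0494, close to the limit of the table. The 8 higher genes of the list stayed higher under both scalings, with a list median of 0.69 at equal totals and 0.14 when centred. The 2 lower ones could not change sign.

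The families of the 5 genes split by gene, and 53.5% of all listed genes were higher in the deficient line. Of 20 AP-1 and MAF factors 2 had a row, FOSL1 and JUND, both higher in the deficient line. Of 13 EGR, NAB and SRF-related genes 3 had a row, EGR1, EGR2 and WT1, all lower, though EGR2 and WT1 were under 1 FPKM in both lines. Of 14 genes of the MYC and MAX network 2 had a row: MYC, and its paralogue MYCN, which went the other way at 0.351 against 1.31 FPKM. The signs of FOSL1, JUND and MYC did not change under either scaling, and those of the lower genes could not.

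Of 25 genes in the DUSP family list 4 had a row, 3 higher and 1 lower, where 53.5% of all listed genes were higher. DUSP7, a cytoplasmic ERK phosphatase, had 14.4 against 5.12 FPKM, and DUSP9, also a cytoplasmic MAP kinase phosphatase, 1.66 against 0.158. DUSP16, which prefers JNK and p38, was lower at 4.28 against 9.01 FPKM. In a grouping made after the values were seen, DUSP5, DUSP7 and DUSP9, which can all inactivate ERK, were higher, with log2 differences of 1.10, 1.33 and 1.20. DUSP5 was picked for its value and the grouping leaves out DUSP16, so nothing is read from it. DUSP5 and DUSP7 lie in GC group 4, where 80.2% of genes were higher, and DUSP9 in group 5, where 89.7% were. DUSP4 and DUSP6 had no row. Of 23 genes of ERK output and feedback 5 had a row, 4 members and the receptor EPHA2 (137 against 65.2 FPKM), and no SPRY, SPRED or ETV gene of that list had one.

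KLF2 was 1 of 6 listed KLF and SP factors of 27. Of the 6, 4 were higher and 2 lower in the deficient line, where 53.5% of all listed genes were higher. KLF16 had 21.6 against 10.6 FPKM, KLF15, which responds to glucocorticoids, 1.51 against 0.361, and SP6 0.414 against 0.118. KLF12, a repressor, had 0.133 against 0.949 FPKM and SP9 0.0240 against 0.730. KLF2 was the only 1 of the 6 past 2-fold on the FPKM + 1 scale. KLF4, KLF6 and KLF10, the other KLF genes of the immediate early list, had no row.

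Upstream of ERK the listed genes went both ways, but most of the lower ones were barely measured. Of 67 receptors, ligands and RAS pathway genes considered, 12 are in the table, 7 higher and 5 lower. Of all listed genes 53.5% were higher. The median difference of the 12 was 0.55 as given, 0.33 at equal totals and 0.04 when centred. Neither line reached 1 FPKM for the lower genes FGF9, KIT, IGF1 and PDGFRA, or for PDGFRB, a higher one. Among the 7 genes that reached it in either line, only FLT1 was lower. The 5 with at least 1 FPKM in each line were all higher. FGF5, a growth factor, had 5.35 against 1.72 FPKM, the receptors EPHB2 and AXL 37.2 against 8.78 and 132 against 55.5, and the VEGF receptor KDR 3.15 against 0.298. AREG, a ligand of the EGF receptor, had 29.8 against 12.5 FPKM, and FLT1, another VEGF receptor, was lower at 0.196 against 2.17. FGF5 overlaps CFAP299 on the same strand. No RAF, MEK or ERK kinase gene of the list had a row.

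Among known targets of MYC, 12 of 46 had a row, and 11 were higher in the deficient line, where 53.5% of all listed genes were. Their median GC content of 56.4% lies in GC group 4, where 80.2% of genes were higher. SRM, which makes spermidine, had 45.8 against 16.2 FPKM, and the ribosome assembly factors PPAN and RRP9 31.1 against 12.7 and 31.2 against 12.8. NME1, a nucleoside diphosphate kinase, had 79.7 against 37.5 FPKM and NME2, its neighbour, 158 against 76.6. HK2, a hexokinase that is also a hypoxia target, was the lower one, at 11.5 against 49.03 FPKM. PPAN overlaps the readthrough gene PPAN-P2RY11 and NME1 and NME2 overlap NME1-NME2 on the same strand, so their reads can be shared. The list median was 1.01, against 0.20 for all listed genes and 0.78 for those with at least 1 FPKM in either line, as all 12 had. It was 0.87 for listed genes with at least 1 FPKM in both lines. The list median adds little to the count of signs. When centred the split was 7 higher and 5 lower, with a median of 0.03.

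Among known targets of AP-1, 6 of the 24 considered are in the table, of which 5 were higher and 1 lower, where 53.5% of all listed genes were higher. The median GC content of the 6, 45.1%, lies in GC group 2, where 24.0% of genes were higher, and its part was not tested. The list median was 1.27, against 0.78 over listed genes with at least 1 FPKM in either line. MMP14, a membrane-bound matrix protease, had 61.2 against 25.5 FPKM. The other higher genes, IL1B, IL1A, CSF2 and IL6, encode cytokines, with log2 differences from 1.00 for IL6 to 1.77 for IL1B. SPP1 was lower and under 1 FPKM in both lines. The split was the same under both scalings, with a median of 0.30 when centred.

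Among known targets of KLF2, 3 of the 12 considered had a row, and all 3 were higher in the deficient line under each scaling tried. Of all listed genes 53.5% were higher before scaling. THBD, the thrombin receptor thrombomodulin, had 17.3 against 4.99 FPKM and NOS3, the endothelial nitric oxide synthase, 2.05 against 0.0842. EDN1, the vasoconstrictor endothelin-1, had 41.2 against 15.3 FPKM, and it is a gene that KLF2 is known to repress in endothelium. The list median was 1.49, against the same 0.78. Endothelial markers lay in the same direction: 3 of 10 had a row, EGFL7 (26.0 against 7.03 FPKM), CDH5 (13.4 against 4.64) and KDR, with summed levels of 42.5 against 12.0 FPKM, while PECAM1, VWF and TEK had no row. Their part in the KLF2 target values was not tested.

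Among known targets of EGR1, 4 of 14 had a row, and 3 of them were higher, against EGR1, where 53.5% of all listed genes were higher. F3, tissue factor, had 343 against 126 FPKM and ICAM1, an adhesion molecule, 139 against 67.7, and GADD45B, given above, was higher too. THBS1, the matrix protein thrombospondin-1, was lower like EGR1, at 37.8 against 128.6 FPKM. NAB2, the EGR1-induced corepressor of EGR1, had no row. The split was the same under both scalings.

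**Figure D5:**
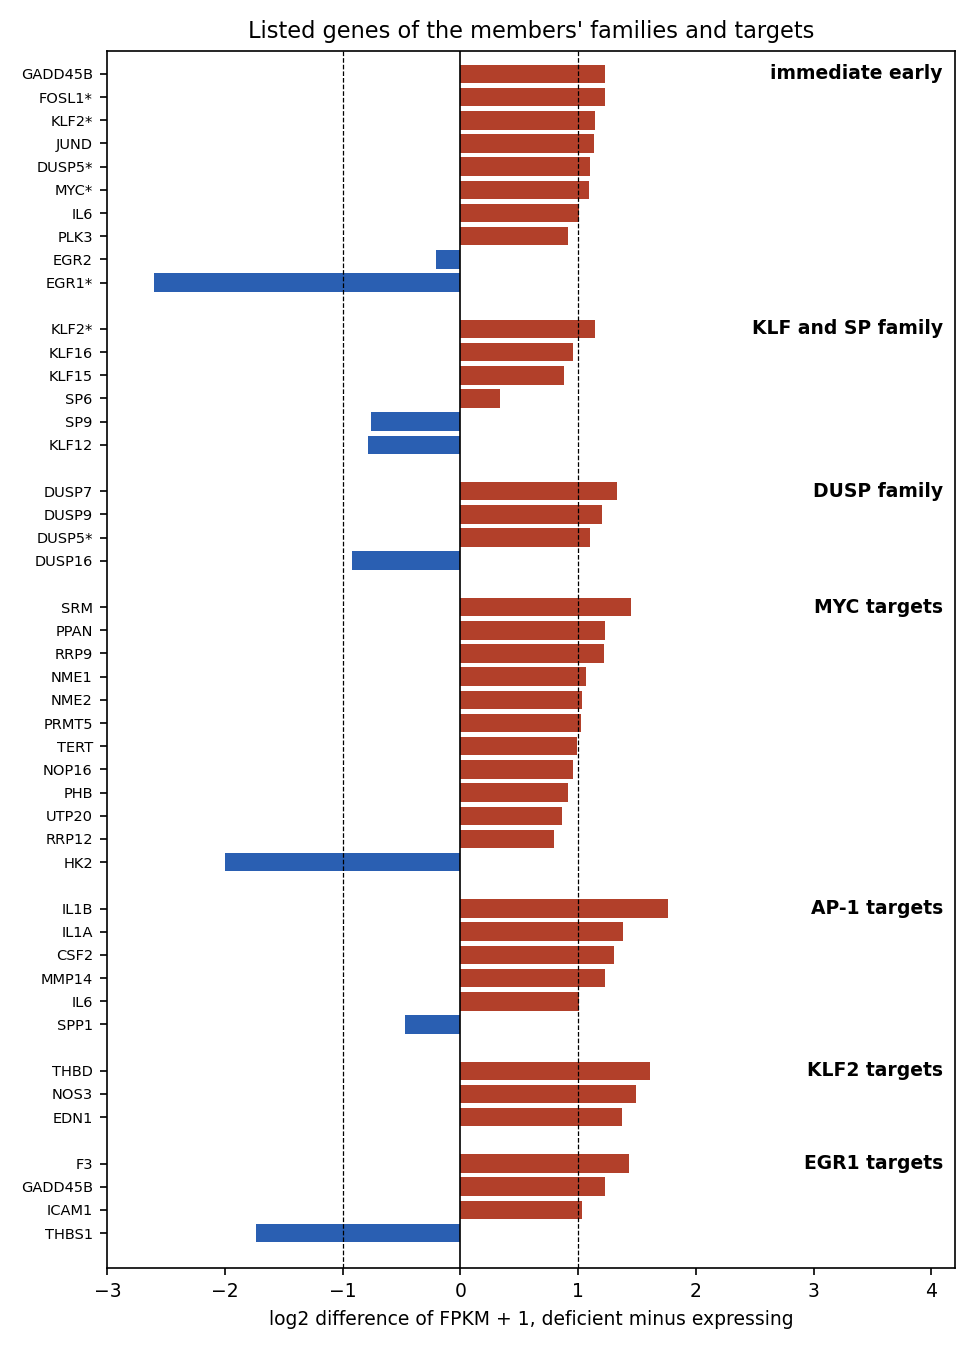
Log2 difference of FPKM + 1 (deficient minus expressing) of the genes with a row in 7 lists, grouped by list, with dashed lines at 2-fold and an asterisk at each of the 5 genes. Genes higher in the deficient line are red and lower ones blue; in the immediate early list EGR1 and EGR2 are the 2 lower genes.

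The 5 genes lie on 5 chromosomes and their genomic surroundings differed. Within 1 Mb on either side, MYC and EGR1 had no other listed gene, DUSP5 had 1 (ADD3, lower) and KLF2 had 1 (F2RL3, higher). FOSL1 had 8, of which 7 were higher and 1 lower, where 53.5% of all listed genes were higher. Nothing is read from these small counts.

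The protein-coding genes nearest to each member over the 2 lines, by distance on log2(FPKM + 1), were C19orf25 and SURF6 for MYC, OPLAH and NRP1 for FOSL1, CST3 and PLOD3 for DUSP5, and SERPINF2 and PRXL2B for KLF2. Those distances were between 0.023 and 0.083. EGR1 had no such close match: its nearest genes were OLFML2A, a secreted matrix protein, at 1.49 against 12.7 FPKM and DEPTOR, an inhibitor of mTOR, at 1.68 against 12.9, at distances of 0.11 and 0.18. A likeness over 2 values says only that the levels are alike in these lines.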

How the data were processed

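RNA of 2 samples, 1 per line, was compared. The deposited FPKM values are the authors' means per line: all 3612, times 3, are whole at the sixth decimal within a tolerance of 0.02, so each is taken to average 3 values, whereas each line has 1 sample in the labels. The log2 fold change and the p-value and adjusted p-value columns are the authors', per the file headers, and the sources used here do not name the test. The adjustment runs over 38868 features, and the last listed gene has rank 2716, so the 1806 rows are some of the features past 0.05. Per the submitters' processing notes, the tools included HISAT2 and StringTie 1.3.3b, and a mouse build, mm9, is named. The IDs and positions are human and were read as GRCh38.

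Differences used a pseudocount of 1 FPKM, and no test was run. The genes named are the 5 members, BRCA1, listed genes of the families, up to 6 listed genes at 1 FPKM or more of each other list, and the 2 nearest patterns per member. Genes named outside this rule, for low levels, for lacking a row or as neighbours within 1 Mb, were chosen after their values were seen. Some list genes are not reported here and were left out of the lists. The members and lists were chosen with earlier results of these data known. List names were resolved to gene IDs through current and older symbols. GC content came from the longest transcript in GENCODE 29. The counting and motif search were tested on simulated data. Alternatives were other pseudocounts, scalings, minimum levels, fold rules, a stricter adjusted p and the authors' fold. Python 3.11.15, numpy 2.4.6, pandas 2.3.3 and matplotlib 3.10.9 were used.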

Additional observations from a re-analysis of the deposited data

How the results depend on the processing

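The sign of all 5 genes was the same under every alternative that gave a value. Another pseudocount cannot change a sign, and neither scaling could change that of EGR1. In the order MYC, FOSL1, DUSP5, KLF2 and EGR1, the log2 differences were 1.23, 1.52, 1.13, 1.79 and -3.20 with a pseudocount of 0.1, and 1.25, 1.56, 1.13, 1.91 and -3.28 with 0.01. They were 0.70, 0.86, 0.67, 0.84 and -2.84 at equal totals, 0.20, 0.40, 0.12, 0.47 and -3.11 when centred, and 1.39, 1.65, 1.26, 2.01 and -3.22 by the fold of the authors' deposited table. Of the 4 higher genes, 0 passed the fold rule at equal totals, when centred and at 4-fold, and 2 were left at an adjusted p of at most 0.01. EGR1 passed under each of these, though both scalings move it further down. Among listed immediate early genes 7 were at least 2-fold higher, with 0 at equal totals, when centred and at 4-fold, and 2 at the stricter adjusted p. The lower count rose from 1 to 2 with either smaller pseudocount and by the authors' fold. Over all listed genes the 457 higher and 406 lower became 840 and 756 with a pseudocount of 0.1, 896 and 812 with 0.01, 964 and 831 by the authors' fold, 50 and 42 at 4-fold and 745 and 627 at 1.5-fold, and the higher count became 178 at equal totals and 63 when centred. For the MYC, AP-1 and KLF2 target lists, 15 of 60 such counts moved by over 1.5 times. No paired analysis was possible because each line has 1 sample and 1 mean value. No replicate could be left out. The depth is unknown, which limits most what can be said of genes under 1 FPKM.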

Other observations

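Genes of the SRF and actin programme, which share SRF with the immediate early genes, went both ways. Of 18 genes 3 had a row: the muscle ankyrin repeat gene ANKRD1 had 74.96 FPKM in the BRCA1-deficient line against 24.4 and TGFB1I1, a focal adhesion adaptor, 8.95 against 3.78, while TPM1, a tropomyosin, was lower at 13.8 against 59.0. Of 12 heat shock and dissociation genes 1 had a row, the inducible chaperone HSPA6, at 0.0118 against 1.14 FPKM. Fibroblast markers had 5 of 10 with a row, 2 higher and 3 lower, and no common direction of level: COL1A2 had 10.5 against 97.3 FPKM and THY1 17.8 against 4.75. The summed level of the 5 was 28.9 against 104.8 FPKM. Without COL1A2 it was 18.3 against 7.48 FPKM, a sum that is mostly THY1. MFAP5 was lower, at 0.515 against 2.71 FPKM, and PDGFRA and PDGFRB were near 0 in both lines. Of all listed genes 53.5% were higher.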
